A study of Homo sapiens with 6 samples.

Results

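Genes of fatty acid oxidation and of the peroxisome were examined in SNU449, an established cell line from a human hepatocellular carcinoma, after knockdown of the oxytocin receptor gene OXTR. The members were taken by symbol: the PEX, CPT, ACAD, ACOX, HADH, ECI, ACOT and ETF families, the enzyme genes ECHS1, ACAA1, ACAA2, DECR1, HSD17B4 and CAT, and the nuclear receptor genes PPARA, PPARD and PPARG. This gave 60 genes of the 17153 in each library. RNA was measured in cells transfected for 48 h with a small interfering RNA against OXTR (siOXTR, n = 3 libraries) or with a control siRNA (siControl, n = 3 libraries). The cells of both groups had been grown in the same serum-containing medium and carried no other treatment in the labels. No label ties a library to a culture of its own, so the p-values reflect library-to-library spread, part or all of which could be technical. No siRNA sequence is given, nor whether siOXTR was a pool.

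Mitochondria shorten fatty acids by repeated cycles of β-oxidation. The carnitine palmitoyltransferases carry long-chain acyl groups into the organelle, acyl-CoA dehydrogenases open each cycle and hand their electrons to the electron transfer flavoprotein, and a hydratase, a dehydrogenase and a thiolase complete it. Peroxisomes run a parallel cycle on very-long-chain and branched fatty acids, in which an oxidase produces hydrogen peroxide that catalase removes. The PEX genes encode peroxins, which build the peroxisomal membrane, import its enzymes and divide the organelle. Peroxisome proliferator-activated receptors (PPARs) are nuclear receptors that bind fatty acids and control many of these genes, PPARA above all in liver.

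The targeted transcript was at 6.03, 6.11 and 6.14 FPKM in the siOXTR libraries, against 26.5, 26.6 and 24.6 FPKM in the siControl libraries (FPKM, fragments per gene scaled to gene length and library size). OXTR was thus low in every library labelled siOXTR. The files held 8 of 9 hepatocyte marker genes, and none exceeded 1.10 FPKM in any library. Their sum ranged from 1.31 to 1.44 FPKM in siOXTR and from 1.64 to 2.17 FPKM in siControl, and APOB was listed at 0 in all libraries. The keratin genes KRT8 and KRT18 were expressed, with a sum of 169 to 173 FPKM in siOXTR and 123.5 to 128 FPKM in siControl. The epithelial junction genes EPCAM and CDH1 were at or under 0.47 FPKM in all libraries. Of the mesenchymal markers, VIM averaged 3390.5 FPKM in siOXTR and 1835 FPKM in siControl, FN1 averaged 1.52 FPKM in siOXTR and 15.2 FPKM in siControl, and CDH2 averaged 7.28 FPKM in siOXTR and 24.1 FPKM in siControl. The mesenchymal markers thus moved in both directions with the groups, and their part in the results on the members was not tested. Markers of blood and endothelial cells summed to no more than 0.81 FPKM in siOXTR and 1.23 FPKM in siControl. Pearson correlations of log2 values across the tested genes, which are not independent replicates, ranged from 0.997 to 0.998 among libraries of the same group and from 0.922 to 0.923 for siOXTR against siControl libraries.

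The members moved in both directions after OXTR knockdown, mostly by modest amounts. Of the 60 members, 52 reached 1 FPKM in at least 3 libraries and were tested, and all 52 were at 1 FPKM or more in every library. With limma on log2(FPKM + 1) and Benjamini-Hochberg adjustment over all genes, 14 members were higher and 25 lower in siOXTR at an adjusted p under 0.05, and 13 did not pass. These calls covered 75.0% of the tested members, whereas 82.5% of all 11655 genes tested were called. Higher calls took 26.9% of the members and 37.7% of all genes, and lower calls took 48.1% of the members and 44.8% of all genes. The median log2 change was -0.10 for the members and -0.06 for all genes tested. Of the 14 higher members 8 had a log2 change under 0.5, and of the 25 lower members 15 had one above -0.5. Changes of at least 1 on the log2 scale were found in 3 members (5.77%), namely PPARG and ECI1, which were higher, and HADH, which was lower, against 11.5% of all genes. All siOXTR libraries lay on 1 side of all siControl libraries in 39 members (75.0%), against 83.0% of all genes. In a bulk RNA sample, a change in the share of cells that express a gene cannot be told apart from a change in RNA per cell.

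**Figure D1:**
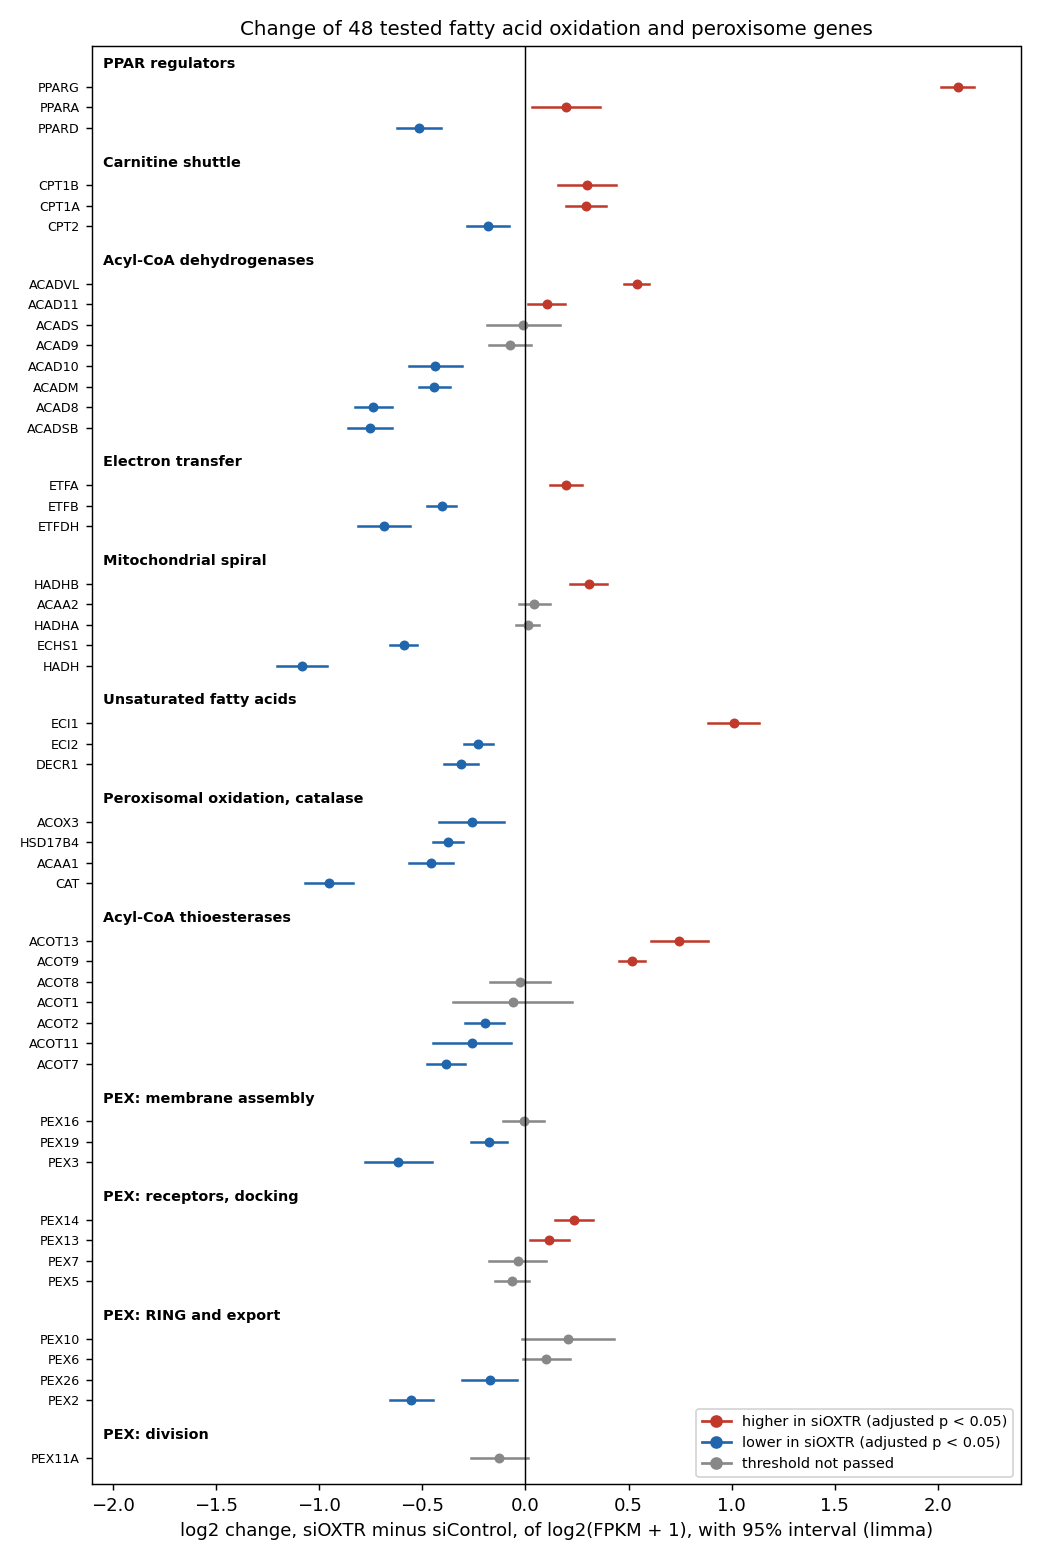
Log2 change (siOXTR minus siControl, on the log2(FPKM + 1) scale) of 48 tested members with its 95% interval from limma, sorted within each role. Red marks the 13 genes drawn that were called higher in siOXTR, blue the 23 called lower and grey the 12 that did not pass the threshold, and PPARG stands apart at 2.10.

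Among the 3 PPAR genes the response was split. PPARG, best known as the receptor that drives fat storage and adipocyte differentiation, was at 67.5, 70.1 and 70.7 FPKM in siOXTR, against 14.8, 15.9 and 15.8 FPKM in siControl. Every siOXTR library lay far above every siControl library. The means were 69.4 ± 1.68 FPKM in siOXTR and 15.5 ± 0.608 FPKM in siControl (SD, n = 3 each), a 4.49-fold higher level (log2 change 2.10, SE 0.04, limma adjusted p = 5.96e-12). PPARD, the broadly expressed receptor that also promotes fatty acid oxidation, was at 9.24, 9.72 and 9.12 FPKM in siOXTR, against 14.4, 14.1 and 13.0 FPKM in siControl. Its groups did not overlap either, and it fell 1.48-fold (log2 change -0.52, SE 0.05, adjusted p = 2.34e-06). PPARA, the main activator of hepatic fatty acid oxidation, was low in all libraries, at 3.72, 4.13 and 3.45 FPKM in siOXTR and 3.08, 2.92 and 3.49 FPKM in siControl. The lowest siOXTR library lay below the highest siControl library. Its log2 change of 0.20 (SE 0.07, adjusted p = 0.0311) was the only call among the members with overlapping groups. The call was lost without siOXTR library 1 (adjusted p = 0.0594), without siOXTR library 2 (0.1198), without siControl library 1 (0.0765) and without siControl library 2 (0.109).

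The promoter window of PPARG, the tested member with the largest log2 change, is shown because it was the member window with the most copies of the hexamer AGGTCA, the half-site that nuclear receptors such as PPARs and their RXR partners recognise. The window runs from 250 bases before to 50 bases after the gene start in RefSeq (GRCh38.p14, chr3:12287118-12287417, plus strand). Only 1 start per gene was used, so any other start was not searched. Both copies are on the forward strand and are in capitals. They are separated by more than the single base of the element that a PPAR and RXR pair binds.
PPARG: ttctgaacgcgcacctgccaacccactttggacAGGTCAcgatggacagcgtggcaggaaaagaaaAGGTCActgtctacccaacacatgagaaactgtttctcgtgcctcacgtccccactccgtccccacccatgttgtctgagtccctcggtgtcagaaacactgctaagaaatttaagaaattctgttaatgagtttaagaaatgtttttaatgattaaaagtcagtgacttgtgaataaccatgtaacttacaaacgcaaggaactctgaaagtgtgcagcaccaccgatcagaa

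Partners and reported targets of the PPARs did not move as a block. Of 18 such genes in the files 14 were tested, of which 5 rose and 4 fell (median log2 change 0.05, against -0.06 for all genes tested). Of all genes tested, 37.7% rose and 44.8% fell. PLIN2, which encodes a coat protein of lipid droplets, was at 1485, 1483 and 1476 FPKM in siOXTR, against 205, 211 and 199 FPKM in siControl, and rose 7.23-fold (log2 change 2.85). RXRB, a retinoid X receptor gene whose product pairs with PPARs, was at 17.8, 18.4 and 17.0 FPKM in siOXTR, against 9.67, 8.53 and 9.19 FPKM in siControl, and rose 1.94-fold. ANGPTL4, a secreted inhibitor of lipoprotein lipase and a PPAR target, went the other way. It was at 25.0, 24.5 and 22.8 FPKM in siOXTR, against 49.4, 51.4 and 46.6 FPKM in siControl, and fell 2.04-fold. The coactivator gene PPARGC1A was near 0, at no more than 0.11 FPKM in siOXTR and 0.11 FPKM in siControl.

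In the carnitine shuttle, the transferase genes CPT1A and CPT1B rose and CPT2 fell. CPT1A, which encodes the liver form of the outer-membrane transferase that limits the rate of entry, was at 28.8, 31.4 and 29.9 FPKM in siOXTR, against 25.7, 23.6 and 23.6 FPKM in siControl. It rose 1.23-fold with no overlap between the groups (log2 change 0.29, SE 0.04, adjusted p = 1.05e-04). CPT1B, the muscle form, was expressed less, at 4.67, 4.91 and 4.26 FPKM in siOXTR and 3.78, 3.52 and 3.38 FPKM in siControl, and rose by 0.30 on the log2 scale (adjusted p = 0.00123). CPT2, which releases the acyl group on the matrix side, was at 7.14, 7.38 and 7.56 FPKM in siOXTR, against 8.28, 8.34 and 8.79 FPKM in siControl. It fell slightly, by 0.18 on the log2 scale (SE 0.05, adjusted p = 0.00398), again without overlap. CPT1C, a form found mainly in brain, lay between 0.11 and 0.21 FPKM in siOXTR and between 0.42 and 0.63 FPKM in siControl and was too low to be tested.

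All 8 tested genes of the wider carnitine and malonyl-CoA system, out of 9 in the files, passed the threshold, with 3 higher and 5 lower (median log2 change -0.27, against -0.06 for all genes tested). Of all genes tested, 82.5% passed it. Among the lower genes, ACACB entered the test only through siControl, since it was under 1 FPKM in every siOXTR library. CRAT, the carnitine acetyltransferase gene, was at 28.0, 28.9 and 29.9 FPKM in siOXTR, against 18.5, 19.2 and 17.9 FPKM in siControl, and rose 1.56-fold. SLC25A20, the gene of the inner-membrane carnitine carrier, was at 10.1, 10.1 and 9.31 FPKM in siOXTR, against 7.68, 8.39 and 7.35 FPKM in siControl. It was among the 3 higher genes, with a log2 change of 0.30. CROT, which makes the carnitine esters in which peroxisomes export shortened chains, was at 8.45, 8.39 and 9.43 FPKM in siOXTR, against 14.3, 14.1 and 14.8 FPKM in siControl, and was 1.64-fold lower. ACACA, the acetyl-CoA carboxylase that makes malonyl-CoA, the inhibitor of CPT1 enzymes, was 1.99-fold lower, at 10.0, 11.4 and 10.6 FPKM in siOXTR and 20.5, 21.3 and 21.9 FPKM in siControl. Of 11 tested genes for fatty acid uptake and activation, out of 17 in the files, 1 rose and 6 fell (median log2 change -0.19), where 37.7% of all genes tested rose and 44.8% fell. SLC27A2, among the 6, was under 1 FPKM in all siOXTR libraries but 1 and above 3 FPKM in every siControl library. SLC27A4, a fatty acid transport protein gene, rose 1.45-fold. DBI, which encodes the acyl-CoA-binding protein, was at 109, 106 and 107 FPKM in siOXTR, against 265, 277 and 265 FPKM in siControl. The long-chain acyl-CoA synthetase gene ACSL3 had a log2 change of -1.47.

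The acyl-CoA dehydrogenase genes moved in different directions, with 2 of 8 tested higher and 4 lower. Among all genes tested, 37.7% were higher and 44.8% lower. ACADVL, the very-long-chain enzyme of the inner membrane, had the highest mean level of all tested members and was at 157.9, 158.5 and 162 FPKM in siOXTR, against 111, 111 and 106 FPKM in siControl. It rose 1.46-fold (log2 change 0.54, SE 0.03, adjusted p = 1.42e-08). ACADM, the medium-chain enzyme, was at 22.2, 23.2 and 22.3 FPKM in siOXTR, against 30.6, 30.5 and 31.9 FPKM in siControl, and fell 1.37-fold (log2 change -0.44, SE 0.03, adjusted p = 4.33e-07). Neither gene's groups overlapped. The short-chain gene ACADS did not pass (log2 change -0.01, 95% interval -0.19 to 0.17), nor did ACAD9, whose product also serves complex I assembly (log2 change -0.08, 95% interval -0.18 to 0.02).

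The largest falls in this family were in the dehydrogenases of branched-chain amino acid breakdown. ACADSB, which acts on short branched chains from isoleucine, was at 5.44, 5.09 and 4.94 FPKM in siOXTR, against 9.33, 9.40 and 9.44 FPKM in siControl (log2 change -0.76, SE 0.05, adjusted p = 1.03e-07). ACAD8, the isobutyryl-CoA dehydrogenase gene of valine breakdown, was at 12.2, 11.6 and 12.4 FPKM in siOXTR, against 21.5, 20.7 and 20.3 FPKM in siControl (log2 change -0.74, SE 0.04, adjusted p = 2.69e-08). Both were lower in every siOXTR library, by 1.82-fold and 1.72-fold. ACAD10 fell by 0.44 on the log2 scale (adjusted p = 3.81e-05). ACAD11 was called higher at a log2 change of 0.10 (adjusted p = 0.0360), close to the threshold. The call was lost without siOXTR library 1 (0.0981) or 3 (0.102) and without siControl library 1 (0.0888), 2 (0.0663) or 3 (0.0638). Its log2 change lay between 0.089 and 0.170 under all settings. ACADL, the long-chain gene, lay between 0 and 0.02 FPKM in siOXTR and between 0.02 and 0.06 FPKM in siControl.

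The genes of the electron transfer flavoprotein, which collects electrons from all of these dehydrogenases, did not move together. ETFA, the alpha subunit, was at 94.1, 90.5 and 92.9 FPKM in siOXTR, against 80.1, 84.7 and 77.0 FPKM in siControl (log2 change 0.20, SE 0.04, adjusted p = 3.77e-04). ETFB, its partner in the heterodimer, was at 37.5, 36.1 and 36.8 FPKM in siOXTR, against 47.7, 48.7 and 50.9 FPKM in siControl (log2 change -0.41, SE 0.03, adjusted p = 6.42e-07). ETFDH, the oxidoreductase that passes the electrons to ubiquinone, was at 4.44, 4.13 and 3.93 FPKM in siOXTR, against 7.31, 6.97 and 7.61 FPKM in siControl. It was 1.75-fold lower (log2 change -0.68, SE 0.06, adjusted p = 8.74e-07). The groups overlapped in none of the 3 genes.

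Of the 5 genes for the later steps of the mitochondrial cycle, 1 rose and 2 fell. Over all genes tested, 37.7% rose and 44.8% fell. HADH, the short-chain hydroxyacyl-CoA dehydrogenase gene, was at 14.9, 13.6 and 12.9 FPKM in siOXTR, against 28.5, 31.4 and 31.0 FPKM in siControl. It fell 2.20-fold, the largest decrease in log2 change among the 52 tested members (log2 change -1.08, SE 0.05, adjusted p = 1.55e-08). ECHS1, the short-chain enoyl-CoA hydratase gene, was at 72.1, 70.2 and 74.0 FPKM in siOXTR, against 110.1, 111 and 106 FPKM in siControl (log2 change -0.59, SE 0.03, adjusted p = 1.58e-08). Both genes were lower in every siOXTR library.

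HADHA and HADHB encode the alpha and beta subunits of the trifunctional protein, which performs the last 3 reactions on long chains. HADHA was at 124, 124 and 124 FPKM in siOXTR and 119.9, 125 and 125 FPKM in siControl, with overlapping groups (log2 change 0.01, 95% interval -0.05 to 0.07, adjusted p = 0.712). HADHB was at 70.1, 67.4 and 66.9 FPKM in siOXTR, against 52.1, 54.6 and 58.2 FPKM in siControl. It rose 1.24-fold without overlap (log2 change 0.31, SE 0.04, adjusted p = 3.37e-05). ACAA2, the mitochondrial thiolase gene, did not pass (log2 change 0.04, 95% interval -0.03 to 0.12). With median-ratio scaling HADHA and ACAA2 were called higher (log2 changes 0.07 and 0.10, adjusted p = 0.0357 and 0.0244).

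The HADHB window (RefSeq, GRCh38.p14, chr2:26244689-26244988, plus strand) is shown because the starts of HADHA and HADHB lie head to head. HADHA starts 307 bases away on the minus strand, and its window of the same length shares the 194 bases in capitals. No other pair of member windows shared bases.
HADHB: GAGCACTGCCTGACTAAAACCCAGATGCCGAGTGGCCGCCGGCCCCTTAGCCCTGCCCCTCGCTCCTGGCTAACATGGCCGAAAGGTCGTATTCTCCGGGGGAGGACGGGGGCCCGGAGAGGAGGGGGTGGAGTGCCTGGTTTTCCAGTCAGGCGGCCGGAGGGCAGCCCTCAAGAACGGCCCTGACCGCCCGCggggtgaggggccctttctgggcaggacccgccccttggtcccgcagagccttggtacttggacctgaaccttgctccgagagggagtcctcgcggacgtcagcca

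Unsaturated fatty acids need auxiliary enzymes, and here again related genes diverged. ECI1, the mitochondrial enoyl-CoA isomerase that shifts double bonds, was at 27.5, 29.1 and 25.5 FPKM in siOXTR, against 13.4, 13.6 and 12.2 FPKM in siControl. It rose 2.09-fold (log2 change 1.01, SE 0.05, adjusted p = 3.01e-08). ECI2, a related isomerase found in peroxisomes and mitochondria, was at 87.3, 91.6 and 91.4 FPKM in siOXTR, against 106, 109 and 102 FPKM in siControl (log2 change -0.23, SE 0.03, adjusted p = 5.91e-05). DECR1, the mitochondrial dienoyl-CoA reductase gene, was at 28.1, 27.2 and 26.1 FPKM in siOXTR, against 35.1, 33.5 and 33.0 FPKM in siControl (log2 change -0.31, SE 0.04, adjusted p = 1.71e-05). No groups overlapped in these genes.

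**Figure D2:**
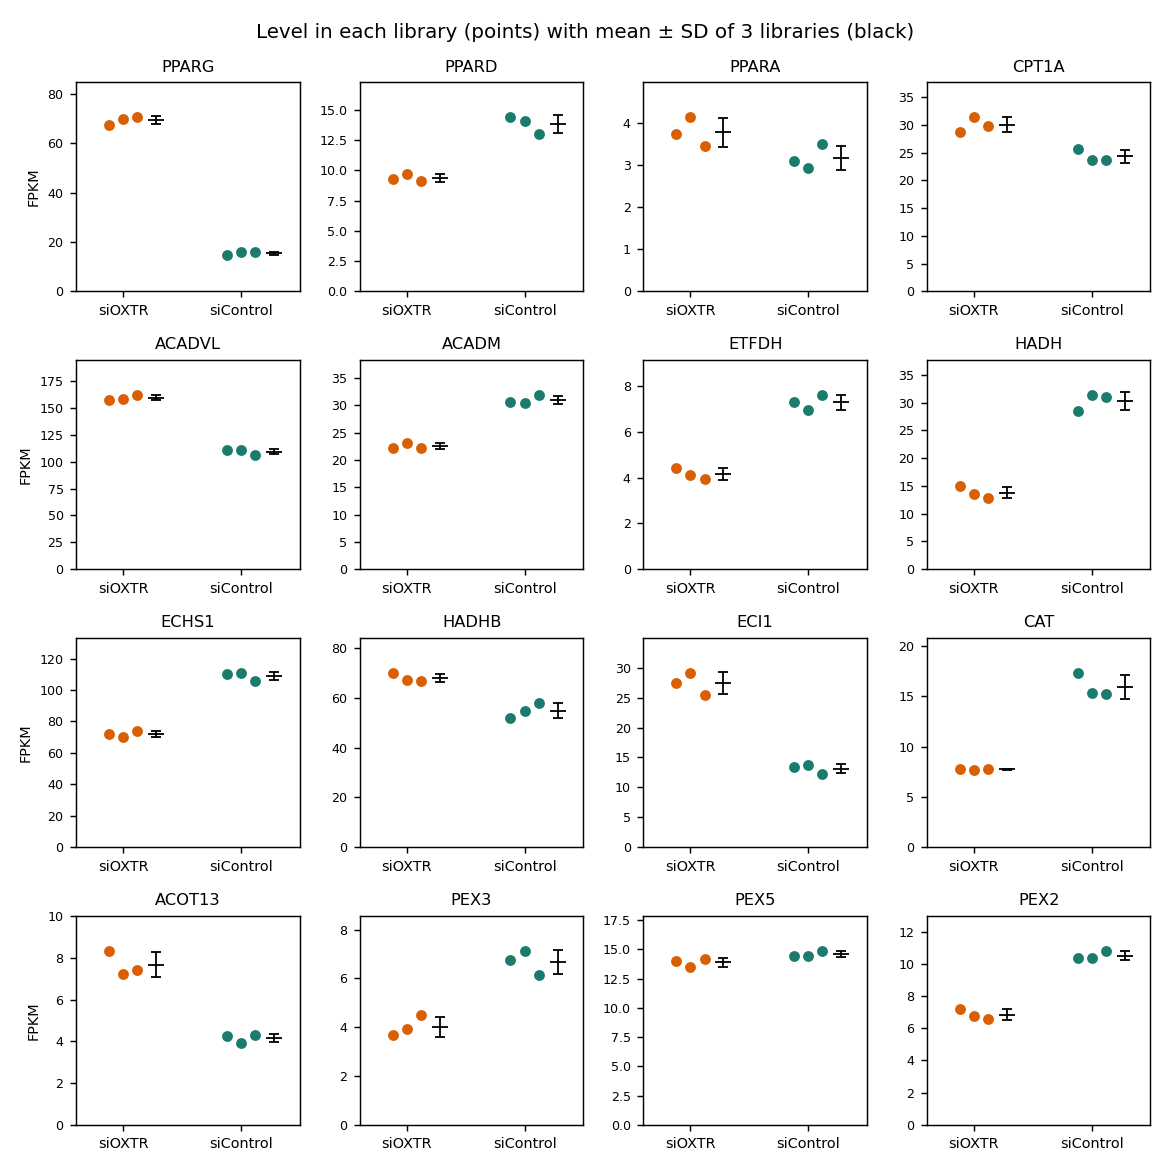
FPKM in each of the 3 siOXTR and 3 siControl libraries (points) for 16 members, with the mean and SD of each group in black and every axis starting at 0. PPARG and ECI1 lie higher in all siOXTR libraries, HADH, CAT and ETFDH lie lower, and the groups overlap for PPARA.

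Genes of peroxisomal oxidation and catalase were lower or did not pass. Of 6 in the files 5 were tested, of which 4 fell and none rose (median log2 change -0.38, against -0.06 for all genes tested). Among all genes tested, 37.7% rose and 44.8% fell. ACOX3, an oxidase for branched chains, fell by 0.26 (adjusted p = 0.00593), and ACOX2 lay at or under 0.14 FPKM in siOXTR and 0.24 FPKM in siControl.

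The enzymes after the oxidase step were lower. HSD17B4, which encodes the D-bifunctional protein, the hydratase and dehydrogenase of the peroxisome, was at 41.1, 42.0 and 44.0 FPKM in siOXTR, against 55.5, 56.4 and 54.2 FPKM in siControl (log2 change -0.38, SE 0.03, adjusted p = 1.27e-06). ACAA1, the peroxisomal thiolase gene, was at 11.1, 10.6 and 9.77 FPKM in siOXTR, against 14.51, 14.82 and 15 FPKM in siControl (log2 change -0.46, SE 0.05, adjusted p = 6.56e-06). CAT, the catalase gene, was at 7.77, 7.67 and 7.76 FPKM in siOXTR, against 17.3, 15.3 and 15.2 FPKM in siControl. It was 2.06-fold lower (log2 change -0.95, SE 0.05, adjusted p = 3.12e-08), the second largest decrease in log2 change among the tested members, and its siOXTR libraries differed by only 0.0551 FPKM (SD).

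The CAT window (RefSeq, GRCh38.p14, chr11:34438684-34438983, plus strand) is shown because, of the 47 member windows, it held the most copies of CCAAT, the box bound by NF-Y. It carries 3 on the forward and 2 on the reverse strand, where they read ATTGG, all in capitals.
CAT: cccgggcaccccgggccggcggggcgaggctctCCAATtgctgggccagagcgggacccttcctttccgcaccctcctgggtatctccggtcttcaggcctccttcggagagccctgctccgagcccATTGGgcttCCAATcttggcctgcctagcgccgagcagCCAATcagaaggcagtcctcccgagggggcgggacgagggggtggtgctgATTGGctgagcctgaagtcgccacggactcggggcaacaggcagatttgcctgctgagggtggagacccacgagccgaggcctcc

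A wider list held other peroxisomal enzymes and membrane proteins. Of 29 such genes in the files 26 were tested, of which 6 rose and 16 fell (median log2 change -0.18, against -0.06 for all genes tested), where 37.7% of all genes tested rose and 44.8% fell. Among the 6 higher genes, HACL1, a lyase gene of branched-chain α-oxidation, was at 12.4, 11.4 and 12.6 FPKM in siOXTR, against 8.89, 7.99 and 9.13 FPKM in siControl, and rose by 0.44 on the log2 scale. PXMP4, a peroxisomal membrane protein gene of low level, had the largest change in the list, at 2.13, 2.18 and 2.06 FPKM in siOXTR, against 5.45, 5.17 and 5.27 FPKM in siControl (log2 change -1.01). The groups of both genes were apart. PXMP2, a channel-forming membrane protein gene, was at 5.76, 5.14 and 5.06 FPKM in siOXTR, against 10.8, 10.7 and 10.7 FPKM in siControl. SCP2, which encodes a sterol carrier and thiolase, was at 26.1, 24.4 and 25.4 FPKM in siOXTR, against 45.5, 46.0 and 45.0 FPKM in siControl. ABCD3, a transporter gene of the peroxisomal membrane, was at 35.6, 35.8 and 34.7 FPKM in siOXTR, against 60.6, 60.0 and 61.7 FPKM in siControl. The log2 changes of PXMP2, SCP2 and ABCD3 were -0.89, -0.82 and -0.76, and no groups overlapped. CRAT, CROT and ACSL1 each stood in 2 of the lists of other genes, which together held 56 tested genes, 14 higher and 29 lower.

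Acyl-CoA thioesterases, which release free fatty acids from CoA, moved both ways, with 2 of 7 tested genes higher and 3 lower. Among all genes tested, 37.7% were higher and 44.8% lower. ACOT13, a mitochondrial-associated thioesterase gene, was at 8.35, 7.23 and 7.44 FPKM in siOXTR, against 4.25, 3.93 and 4.31 FPKM in siControl (log2 change 0.75, SE 0.06, adjusted p = 8.51e-07). ACOT9, a mitochondrial enzyme gene, was at 45.7, 44.4 and 45.3 FPKM in siOXTR, against 30.8, 31.7 and 31.4 FPKM in siControl (log2 change 0.52, SE 0.03, adjusted p = 3.05e-08). ACOT7, a mainly cytosolic long-chain thioesterase gene, was at 35.2, 36.9 and 35.9 FPKM in siOXTR, against 45.6, 45.8 and 50.5 FPKM in siControl (log2 change -0.38, SE 0.04, adjusted p = 7.23e-06). None of these groups overlapped. ACOT11 fell by 0.26 (adjusted p = 0.0164), a call lost without siOXTR library 3 (0.0644), without siControl library 1 (0.0607) and under quantile scaling (0.233). ACOT8, the peroxisomal thioesterase gene, did not pass (log2 change -0.03, 95% interval -0.17 to 0.12).

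ACOT1 and ACOT2 are near-identical neighbours. Their longest protein-coding transcripts in GENCODE release 29 matched at 97.9% of 1659 aligned bases, and no source used here tells how the authors assigned shared reads, so their separate levels are uncertain. ACOT2, the mitochondrial form, was called lower (log2 change -0.20, adjusted p = 0.00126) at 23.3 to 26.0 FPKM in siOXTR and 28.1 to 29.2 FPKM in siControl. ACOT1, the cytosolic form, did not pass (log2 change -0.06, 95% interval -0.35 to 0.23). In the same cluster on chromosome 14, where the ACOT2 and ACOT6 starts lie 41886 bases apart, ACOT4 stayed at or under 0.36 FPKM in siOXTR and 0.26 FPKM in siControl. ACOT6 was listed at 0 in all siOXTR libraries and in all siControl libraries but 1, at 0.09 FPKM. ACOT12 lay between 0.21 and 0.57 FPKM in siOXTR and between 0.19 and 0.26 FPKM in siControl.

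Among the peroxins 3 rose and 6 fell of 15 tested, out of 17 in the files (median log2 change -0.07, against -0.06 for all genes tested). Of all genes tested, 37.7% rose and 44.8% fell. Among the genes of peroxisome division, PEX11A did not pass (log2 change -0.13, 95% interval -0.26 to 0.01), and PEX11G lay between 0.50 and 0.72 FPKM in siOXTR and between 0.37 and 0.61 FPKM in siControl.

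Of the genes that insert membrane proteins, PEX3, the docking receptor without which no peroxisomal membrane forms, was at 3.66, 3.91 and 4.48 FPKM in siOXTR, against 6.76, 7.13 and 6.15 FPKM in siControl (log2 change -0.62, SE 0.07, adjusted p = 1.56e-05). PEX19, the cytosolic chaperone that delivers those proteins to PEX3, was at 19.1, 20.3 and 20.7 FPKM in siOXTR, against 22.2, 23.1 and 23.0 FPKM in siControl (log2 change -0.18, SE 0.04, adjusted p = 0.00142). Both were lower in every siOXTR library. PEX16, the third gene of this step, did not pass (log2 change -0.01, 95% interval -0.11 to 0.09).

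The import receptor genes did not pass the threshold and the docking genes rose slightly. PEX5, the receptor for most matrix enzymes, was at 13.98, 13.5 and 14.2 FPKM in siOXTR, against 14.5, 14.4 and 14.9 FPKM in siControl. Its groups did not overlap, but the difference of -0.07 did not pass (95% interval -0.15 to 0.02, adjusted p = 0.119). PEX7, the receptor for a smaller set that includes ACAA1, did not pass either (log2 change -0.04, 95% interval -0.17 to 0.10). PEX14, at which the loaded receptors dock, was at 13.0, 12.4 and 12.6 FPKM in siOXTR, against 11.01, 10.42 and 10.36 FPKM in siControl (log2 change 0.24, SE 0.04, adjusted p = 3.10e-04). PEX13, its partner, was at 12.4, 12.2 and 12.4 FPKM in siOXTR, against 11.7, 11.3 and 10.8 FPKM in siControl (log2 change 0.12, SE 0.04, adjusted p = 0.0248). The PEX13 call was lost without siOXTR library 1 (0.0565) or 3 (0.0643) and without siControl library 3 (0.0961). PEX5L, a relative of PEX5 found mainly in neurons, lay between 0.18 and 0.20 FPKM in siOXTR and between 0.30 and 0.42 FPKM in siControl.

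The import receptor is recycled by a ubiquitin ligase and an export complex. PEX2, a subunit of the ligase, was at 7.22, 6.75 and 6.57 FPKM in siOXTR, against 10.4, 10.4 and 10.8 FPKM in siControl (log2 change -0.55, SE 0.05, adjusted p = 1.19e-06). It was lower in every siOXTR library. PEX10, another subunit, did not pass (log2 change 0.21, 95% interval -0.01 to 0.43, adjusted p = 0.0757) and was called higher without siControl library 1 (log2 change 0.32, adjusted p = 0.00488) and under quantile (0.0261) and median-ratio scaling (0.0262).

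PEX6, an ATPase of the export complex, did not pass (log2 change 0.10, 95% interval -0.01 to 0.22, adjusted p = 0.0909), although it was called higher under quantile (0.00927) and median-ratio scaling (0.0184). PEX26, which anchors that complex in the membrane, fell by 0.17 (adjusted p = 0.0199). That call was lost without siOXTR library 3 (0.0751), without siControl library 1 (0.0825), and under quantile (0.249) and median-ratio scaling (0.0712).

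Because a ratio between genes of 1 library is free of library scaling, partner and related genes were also compared within libraries. The pairs were chosen after the single-gene values had been seen, each with the gene of the higher log2 change on top, so that the direction of every ratio was fixed by the choice. The ratios are therefore given as a description, with no test. The PPARG to PPARD ratio was 7.31, 7.21 and 7.75 in siOXTR, against 1.03, 1.13 and 1.22 in siControl. PPARG transcripts were thus about level with those of PPARD in siControl and several times as abundant in siOXTR. The ETFA to ETFB ratio was 2.51, 2.51 and 2.53 in siOXTR, against 1.68, 1.74 and 1.51 in siControl. For the trifunctional protein, the HADHB to HADHA ratio was 0.565, 0.545 and 0.539 in siOXTR, against 0.434, 0.438 and 0.467 in siControl, so the beta subunit transcript was the scarcer in all libraries and less so in siOXTR. The ECI1 to ECI2 ratio was 0.315, 0.318 and 0.278 in siOXTR, against 0.127, 0.125 and 0.1196 in siControl. The ACADVL to ACADM ratio averaged 7.08 ± 0.225 in siOXTR and 3.54 ± 0.174 in siControl (SD, n = 3 each).

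**Figure D3:**
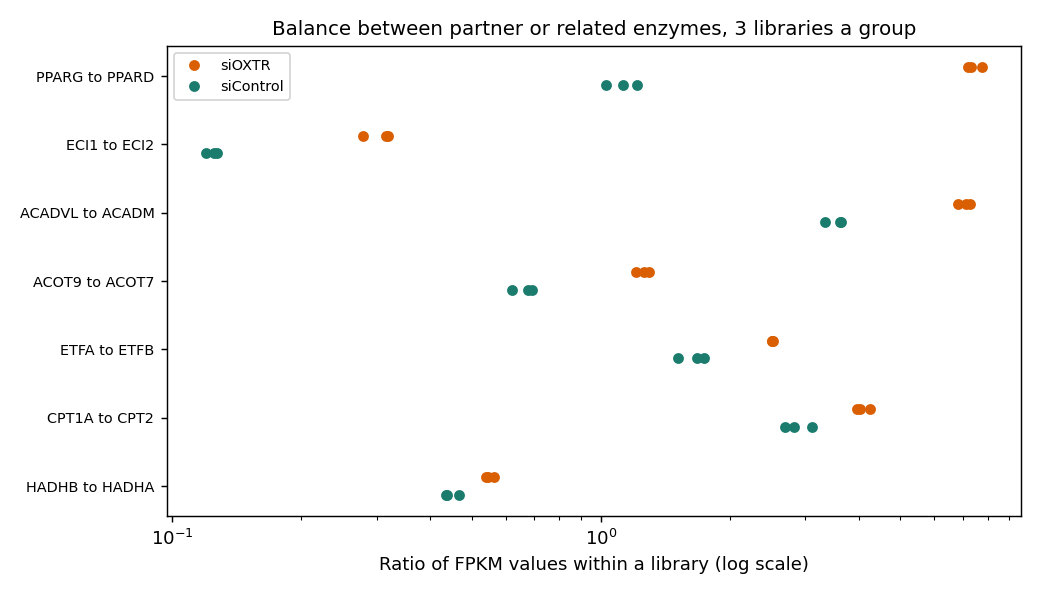
Ratio of the FPKM values of 2 members within each library (log axis), with the 3 siOXTR libraries above the 3 siControl libraries for each pair. Each pair has the gene of the higher log2 change on top, so all 7 lie higher in siOXTR by choice, from a mean ratio 6.61-fold that of siControl for PPARG to PPARD down to 1.23-fold for HADHB to HADHA.

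Summed over all members, the transcript pool differed little. It was 1307, 1308 and 1311 FPKM in siOXTR, against 1315, 1333 and 1315 FPKM in siControl, or 0.307% and 0.319% of all FPKM on average. A sum follows its most abundant genes. The summed level of the genes of peroxisomal oxidation and catalase was 80.9 ± 0.212 FPKM in siOXTR and 108 ± 2.01 FPKM in siControl (SD, n = 3 each). The PEX genes summed to 132 ± 0.921 FPKM in siOXTR and 152 ± 1.37 FPKM in siControl. Their median log2 change was only -0.07, against -0.06 for all genes tested, so this sum does not show a fall across the PEX genes. The acyl-CoA dehydrogenase sum went the other way, at 236 ± 2.78 FPKM in siOXTR and 209 ± 3.41 FPKM in siControl. ACADVL alone gave most of that sum, with means of 159.5 FPKM in siOXTR and 109.5 FPKM in siControl. Its means differed by more than the sums did, so the rest of the sum was lower in siOXTR. The groups did not overlap in these sums, which are given with no test.

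**Figure D4:**
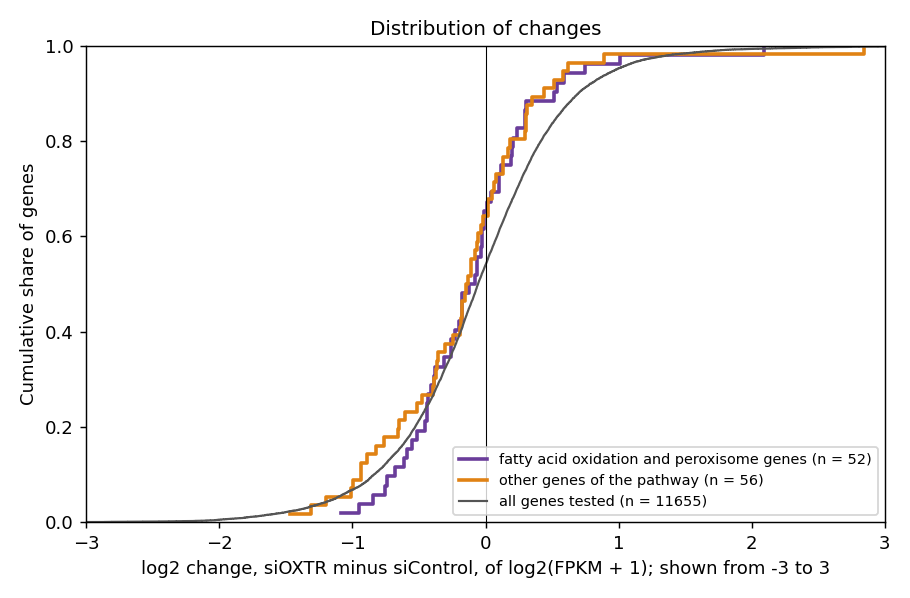
Cumulative share of genes against the log2 change (siOXTR minus siControl, log2(FPKM + 1) scale) for the 52 tested members, 56 other genes of the pathway and all 11655 genes tested. The members' curve is steeper than that of all genes, with a median absolute log2 change of 0.30 for the members and 0.37 for all genes.

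The promoter windows of the members held few of the elements searched. A RefSeq window was found for 47 of the 60 members and for 9673 of the genes tested. Both strands were searched. The half-site AGGTCA was in 3 member windows (6.38%), against 9.60% of the windows of tested genes. Its exact direct repeat spaced by any single base (DR1), which holds the half-site on each side, was in none of the 47 member windows and in 0.0310% of those of tested genes. The element TGATGCAA, which ATF4 can bind, was in none of the member windows and in 0.476% of tested genes, and TGACGTCA, the cyclic AMP response element, was in 2 (4.26%), against 3.41%. CCAAT was in 14 (29.8%), against 37.0%. These shares describe the letters of the windows and say nothing of binding.

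Another protein-coding gene overlapped 21 of the 60 members in the RefSeq annotation. Among them were DLG4 over ACADVL, PPID over ETFDH, CZIB over CPT2, DLEC1 over ACAA1 and PUS10 over PEX13. The labels do not state whether reads were counted by strand, so reads of such pairs may not have been separated, and the levels of these members are uncertain to that extent.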

How the data were processed

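The data were FPKM values from 6 RNA-seq libraries of SNU449 cells, made by the BGISEQ-500 protocol per the labels' protocols. Per the file headers the deposited unit is FPKM, scaled by the authors to gene length and library size and given with 2 decimals. Not given in the sources used here are the genome build, the annotation, the aligner and the counting software. Whole reads could not be recovered from the low values (of 66 values tried, 21.2% fell within 0.1 of a multiple, where chance gives 20%), so the depth is unknown and no count model was used.

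Values were transformed as log2(FPKM + 1). The 11655 genes with at least 1 FPKM in at least 3 libraries were fitted with limma 3.58.1 (R 4.3.3), with group as the factor and a mean-variance trend in the empirical Bayes step. P-values were two-sided and adjusted by Benjamini-Hochberg over all genes tested, with a threshold of 0.05. The script was tested on simulated data. A log2 change understates that of low genes, and folds are ratios of mean FPKM.

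The members, the gene lists and the tests were chosen with earlier results of these data known. Named members were those central to each role, the 3 largest changes per role past the threshold at a mean of 5 FPKM or more, and all members that did not pass. A few members that this rule takes are not reported here. Of each list of other genes, the 3 largest called changes at a mean of 5 FPKM or more were named, so larger changes of lower genes were passed over, and any other gene named was chosen after its values were seen. Alternatives were pseudocounts of 0.1 and 0.01, no filter or one at 5 FPKM, quantile and median-ratio scaling, a replicate block, and omission of single libraries. All 60 members matched RefSeq (GRCh38.p14) by gene ID. Sequences were aligned with Biopython 1.88.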

Additional observations from a re-analysis of the deposited data

How the results depend on the processing

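Of the 39 members called, 34 kept their call under all 13 alternatives (11 higher, 23 lower), and no called member changed direction. PPARA, ACAD11, PEX13, ACOT11 and PEX26 lost theirs under at least 1 alternative, and 4 of the 13 that did not pass were called under at least 1. The member counts of 14 higher and 25 lower became 16 and 23 under quantile scaling, 18 and 24 under median-ratio scaling, 11 and 23 of 44 with a filter at 5 FPKM, and 13 and 27 of 60 without a filter, where PPARA was lost (adjusted p = 0.0737). The counts over all genes, 4395 higher and 5218 lower, became 4788 and 4729 under quantile scaling and 4797 and 4763 under median-ratio scaling. They were 3803 and 4241 of 9393 with the filter at 5 FPKM, and 4592 and 5728 of 17153 without a filter. Leaving out each library gave 11 to 13 members higher and 23 to 25 lower. Which members changed by at least 1 on the log2 scale depended on the setting. Over all settings the log2 change ranged from 0.963 to 1.07 for ECI1 and from -1.04 to -0.896 for CAT. The members' median log2 change of -0.10 moved to -0.12 with a pseudocount of 0.01, -0.0642 without a filter, -0.18 with a filter at 5 FPKM, -0.0256 under quantile and -0.0490 under median-ratio scaling, and ranged from -0.137 to -0.0894 without each library in turn. The change under the filters follows from the genes tested. For the rest the cause was not tested. Over all genes tested, the median of -0.0565 moved to 0.00124 under quantile and -0.00290 under median-ratio scaling. The replicate numbers gave no sign of pairing, which 3 libraries a group and the labels cannot settle. The deviations of same-numbered libraries correlated at -0.01, -0.07 and 0.04, and those of different-numbered libraries at -0.10 to 0.10. With the replicate number as a block, 13 members were higher and 25 lower (4388 and 5205 of all genes). PPARA (adjusted p = 0.0579) and ACAD11 (0.0566) then lost their call and PEX10 gained one (0.0310). The number of libraries limits the precision.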

Other observations

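FAR1 encodes a fatty acyl-CoA reductase of the peroxisome that serves ether lipid synthesis. It was listed at 0 in all libraries but 2, at 0.03 FPKM in 1 siOXTR library and 0.05 FPKM in 1 siControl library. The ether lipid genes GNPAT and AGPS were expressed. GNPAT was at 55.5, 53.3 and 54.3 FPKM in siOXTR and 51.5, 50.9 and 52.3 FPKM in siControl. Whether the value of FAR1 is a failed estimate was not tested. FGF21, a secreted hormone gene under PPARA control in liver, was listed at 0 in all siControl libraries and was at 0.23, 0.12 and 0.23 FPKM in siOXTR, too low to be tested.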
